A study of Mus musculus with 21 samples.

Results

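Rspo1, Rspo2 and Rspo3 encode R-spondins, secreted proteins that raise the response of cells to Wnt ligands. These 3 genes were taken by symbol from the 31053 genes of a single-cell library of mouse colon stroma, and the fourth gene of the family, Rspo4, is given beside them. For that library, gp38+CD90+ cells were sorted from the colon of wild-type female C57BL/6 mice, 12 weeks old, on 2% DSS (dextran sulfate sodium, which damages the epithelium) and taken at D3; how many mice were pooled is unknown here. Open chromatin came from ATAC-seq of 4 populations sorted from male C57BL/6 mice of the same age, with 2 libraries each and no genotype or treatment named. All were gp38+ and lacked CD45, Epcam and CD31. One is named MRISC, for Map3k2-regulated stromal cells of the intestine, with the antibodies behind it not given in the sources used here. Another, CD34 SP, is named as single positive for CD34. The CD138 population has no CD34 and carries CD138, which Sdc1 encodes, and the last is named Myofibroblast. The 12 bulk RNA samples of wild-type and Map3k2-/- colon were not analysed here, so nothing below compares genotypes or DSS with water.

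R-spondins bind the receptors Lgr4, Lgr5 and Lgr6 and the ubiquitin ligases Rnf43 and Znrf3, which otherwise remove Frizzled and its co-receptors Lrp5 and Lrp6 from the cell surface. With the ligases held off, more Wnt receptor stays on the target cell. In the intestine the source of R-spondin is the stroma under the crypts, and the stem cells of the crypt base are the best known target. BMP antagonists such as Grem1 are made in the same niche and keep differentiation signals low there.

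The sequences shown are stretches of open chromatin that the peak results below turn on, with capitals marking matches to fixed transcription factor words. The first is the Rspo1 promoter, 250 bases before the transcription start, from RefSeq on GRCm38.p6 (mm10) at chr4:124986180-124986429, plus strand. Of the 3 members, 1 was in the RefSeq promoter table. The other 2 are the Rspo3 intronic regions with the highest score rank in MRISC outside the promoter, cut to the stretch shared by the best peak of each population that held them. They lie at chr10:29480196-29480425 (MRISC, CD34 SP and CD138) and chr10:29532925-29533058 (all 4 populations), and are printed on the plus strand of mm10, while Rspo3 is read from the minus strand.
Rspo1 promoter: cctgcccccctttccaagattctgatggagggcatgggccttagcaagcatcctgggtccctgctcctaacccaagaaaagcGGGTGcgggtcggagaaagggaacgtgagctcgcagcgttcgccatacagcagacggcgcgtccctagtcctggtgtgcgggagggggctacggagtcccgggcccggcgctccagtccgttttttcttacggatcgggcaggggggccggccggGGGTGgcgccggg
Rspo3 intron, 3 populations: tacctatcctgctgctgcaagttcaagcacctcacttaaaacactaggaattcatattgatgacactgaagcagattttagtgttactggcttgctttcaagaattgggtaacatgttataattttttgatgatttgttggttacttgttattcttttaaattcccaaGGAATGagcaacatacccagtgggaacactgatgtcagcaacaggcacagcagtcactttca
Rspo3 intron, 4 populations: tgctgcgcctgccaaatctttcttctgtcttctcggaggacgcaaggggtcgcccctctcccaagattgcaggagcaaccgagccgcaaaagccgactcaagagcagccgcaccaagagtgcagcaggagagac

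The words searched on both strands were CACCC (KLF family), GGGCGG (SP and KLF), TGANTCA (AP-1), TGTTTNC (forkhead), TGTGGT (RUNX), GACCACCCA (GLI, which contains the KLF word) and CATTCC (TEAD). The Rspo1 promoter held 2 matches to the KLF word, both as its reverse complement, and none of the other words. At least 1 KLF word was also present in 52.0% of the 32851 promoters of the table over the same 250 bases. The Rspo3 stretch of 230 bases held 1 TEAD word, present in 15.3% of the central 230 bases of MRISC peaks, and the stretch of 134 bases held none of the words. Such matches are descriptions of the letters and show no binding. The Rspo1 promoter was GC-rich (66.8%, with 22 CpG), the stretch open in all 4 populations less so (59.7%, 8 CpG), and the stretch of 3 populations AT-rich (38.3% GC, 0 CpG).

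After filtering, 11376 cells and 72920197 UMIs (molecules, each counted once) remained, and the median cell had 6052. It is 1 library, so there is no test between cells, and the 95% intervals below (exact Poisson for levels, exact binomial for shares) cover counting error only. Levels are CPM, the UMIs of a gene scaled to a fixed total and pooled over the cells named. Markers of the sort were present: Pdpn, which encodes gp38, lay between 110 and 416 CPM and Thy1, which encodes CD90, between 41.0 and 210 CPM in the 9 clusters of 50 cells or more. Ptprc, which encodes CD45, was at most 10.5 CPM, in an immune cluster led by Jchain.

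Rspo1 was counted 2048 times, or 28.1 CPM (26.9 to 29.3), and 1171 cells (10.3%) had at least 1 UMI. Rspo3 was counted 1649 times, or 22.6 CPM, in 1162 cells (10.2%). Rspo2 was rare, with 62 UMIs, 0.850 CPM (0.652 to 1.09) and 59 cells (0.519%). Rspo4 had no UMI, which allows at most 0.0411 CPM and a share of at most 0.0264% of cells with a UMI. Single UMIs made up most detections: 64.8% of the cells with Rspo1 and 73.8% of those with Rspo3 had 1 UMI, while the highest counts in a cell were 19 for Rspo1, 9 for Rspo3 and 2 for Rspo2. In all, 2106 cells (18.5%) had a UMI of a member, 1825 of 1 member, 276 of 2 and 5 of all 3.

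Rspo1 and Rspo3 were spread over the stroma in different patterns. The cells were clustered without the R-spondin genes, so that the levels below did not form the clusters. The highest Rspo1 level was in a small mesothelium-like cluster of 89 cells, led by Slpi, Msln and Upk3b, with all 6 mesothelial markers at least 2-fold above other cells. It stood at 525 CPM (476 to 577), 23.3-fold (20.9 to 26.0) above all other kept cells, with a Rspo1 UMI in 76.4% of its cells. These cells were 0.782% of the library and held 20.7% of all Rspo1 UMIs. They also had 3 of 5 glial and 2 of 6 CD34+CD81+ fibroblast markers at 2-fold or more, with Ptprc at 0, and the part of other cells in the level was not tested. Their median depth of 9647 UMIs was above that of the library, and 72.6% of them still had a Rspo1 UMI when each cell was thinned to 3000 UMIs.

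After the mesothelium-like cells, Rspo1 followed at 54.0 CPM (49.1 to 59.3) in a fibroblast cluster of 1359 cells led by Ptx3, Pcolce2 and Ebf1. The lamina propria fibroblast-like cluster (Kcnk2, Tnc and Ces1g, 2798 cells) had 43.0 CPM (40.1 to 46.1) and the inflamed fibroblast-like cluster (Cemip, Mmp10 and Lcn2, 600 cells) had 42.1 CPM (36.3 to 48.5). The intervals of the latter pair overlapped, so their order is open to counting error. The level tied to these last leading genes depended on the clustering. At the finer resolution a cluster led by Cemip, Mmp10 and Lcn2 (550 cells) had 15.1 CPM (11.7 to 19.3), 0.524-fold of other cells. Of its cells, 322 came from the Spock3/Hapln1/Stmn2 cluster and 214 from the inflamed fibroblast-like cluster. Another 386 of the 600 inflamed fibroblast-like cells fell in a Cd36/Nxf7/Tceal6 cluster, which had 33.1 CPM. The remaining clusters held 8.42 CPM or less: the Jchain cluster 8.42, the myofibroblast and smooth muscle-like cluster 6.23, the Spock3/Hapln1/Stmn2 cluster 5.70, the crypt-top fibroblast-like cluster 3.90 and the Cxcl13/Mgp/Eln cluster 1.96 CPM. Rspo1 thus ran from high to near nothing between clusters that all carry the fibroblast sort markers.

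Rspo3 had its highest level in the Ptx3/Pcolce2/Ebf1 cluster, 85.0 CPM (78.8 to 91.5), 5.78-fold (5.24 to 6.38) above all other cells. That cluster was rich in Cd81 (781 CPM) and Cd34 (645 CPM), had 6 of 8 adventitial fibroblast markers and 4 of 6 markers of CD34+CD81+ fibroblasts at 2-fold or more, and held 42.3% of Rspo3 UMIs. The next level was 25.2 CPM (23.0 to 27.6) in the lamina propria fibroblast-like cluster. Then came the myofibroblast and smooth muscle-like cluster with 14.6, the Cxcl13/Mgp/Eln cluster with 13.6 and the Jchain cluster with 12.6 CPM, whose intervals overlapped. Rspo3 was low where Rspo1 was highest, 4.95 CPM (1.35 to 12.7) in the mesothelium-like cluster, and also low in the inflamed fibroblast-like cluster, 8.41 CPM (5.95 to 11.6).

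Of the 62 Rspo2 UMIs, 36 were in the lamina propria fibroblast-like cluster (1.94 CPM, 1.36 to 2.69) and 17 in the Ptx3/Pcolce2/Ebf1 cluster (2.07 CPM, 1.21 to 3.31). These intervals overlap. The Cxcl13/Mgp/Eln cluster had 0.164 CPM (0.0198 to 0.591) and the Spock3/Hapln1/Stmn2 cluster 0.0548 CPM, from 2 UMIs and 1 UMI. In the mesothelium-like cluster Rspo2 was not detected. Over 9 clusters, 1 library shared by all, the Pearson r of log2(CPM + 1) was 0.0955 between Rspo1 and Rspo3, given as a description.

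**Figure D1:**
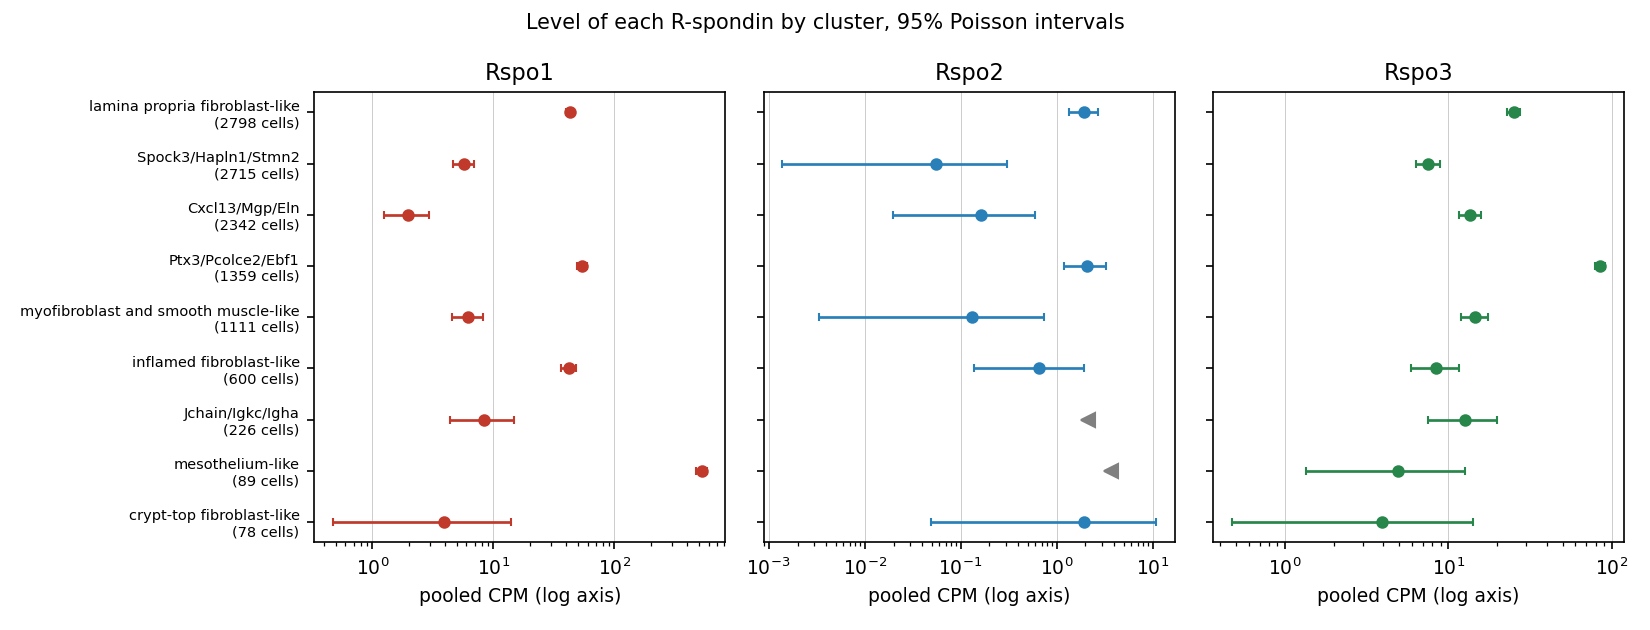
Pooled level of Rspo1, Rspo2 and Rspo3 (CPM, log axis) in each cluster of 50 cells or more, as points with 95% Poisson intervals for counting error; grey triangles stand for the limit that a count of 0 allows. Rspo1 is highest in the 89 mesothelium-like cells (525 CPM) and Rspo3 in the Ptx3/Pcolce2/Ebf1 cluster (85.0 CPM).

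Being 2-fold or more above all other kept cells was a property of 4.52% of 7791 tested genes in the Ptx3/Pcolce2/Ebf1 cluster and of 10.2% in the mesothelium-like cluster. In the former both Rspo1 (2.18-fold) and Rspo3 were above that line, and in the latter Rspo1 alone was. Rspo2 was below the minimum of 20 CPM in every cluster and was not among the tested genes.

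Free RNA was measured in droplets without cells. In 546978 empty droplets, Rspo1 made up 24.7 CPM and Rspo3 18.3 CPM of the UMIs. Immune and epithelial transcripts, 22 markers in all, put free RNA at 16.3% of the UMIs of the stromal clusters, which amounts to 4.02 CPM of Rspo1, 2.97 CPM of Rspo3 and 0.113 CPM of Rspo2. The Rspo1 levels of the crypt-top fibroblast-like and Cxcl13/Mgp/Eln clusters lay at or below that amount. The immune Jchain cluster had 3 of 5 B and plasma cell markers and 4 of 6 myeloid markers at 2-fold or more, and also holds fibroblast transcripts. Of its cells, 4.43% had a Rspo1 UMI and 5.75% a Rspo3 UMI at a median of 5844.5 UMIs per cell. Shares of cells with a Rspo1 UMI were lower than that in the Spock3/Hapln1/Stmn2 (3.20%), myofibroblast and smooth muscle-like (3.15%), crypt-top fibroblast-like (2.56%) and Cxcl13/Mgp/Eln (0.982%) clusters. The pooled Rspo1 levels of the first pair, 5.70 CPM (4.66 to 6.91) and 6.23 CPM (4.58 to 8.28), were nonetheless above the 4.02 CPM of free RNA. Shares with a Rspo3 UMI were lower than in the Jchain cluster in the Spock3/Hapln1/Stmn2 (4.46%), inflamed fibroblast-like (4.67%), mesothelium-like (4.49%) and crypt-top fibroblast-like (2.56%) clusters. Here too the levels of the first pair, 7.51 CPM (6.31 to 8.88) and 8.41 CPM (5.95 to 11.6), were above the free RNA amount of 2.97 CPM. The measures thus part for these clusters, and expression at such levels cannot be told from free RNA by the share of cells alone.

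Finer clustering (16 clusters) split the lamina propria fibroblast-like and the Ptx3/Pcolce2/Ebf1 clusters, and the members parted further. A cluster of 784 cells led by Ces1f, Ddit4 and Ces1g, of which 780 came from the lamina propria fibroblast-like cluster, had 81.5 CPM of Rspo1 (74.2 to 89.2) and 22.75% of its UMIs, but 19.8 CPM of Rspo3 (16.3 to 23.8). It also had 3.67 CPM of Rspo2, 33.9% of all Rspo2 UMIs, with little Cd34 (95.8 CPM) and much Sdc1 (252 CPM). A neighbouring cluster led by Kcnk2, Adamdec1 and Slc40a1 (1259 cells, 1204 of the same origin) had 11.6 CPM of Rspo1 and 25.2 of Rspo3. The lamina propria fibroblast-like cells were thus not uniform.

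The Ptx3/Pcolce2/Ebf1 cells came apart into a Ptx3/Ctla2a/Ptn cluster of 473 cells and a Npy1r/Ackr4/Pcolce2 cluster of 887 cells. The former had 78.0 CPM of Rspo1 (68.9 to 87.9) and 95.9 of Rspo3 (85.8 to 107), with 914 CPM of Cd81 and 102 CPM of Grem1. The latter had 37.8 CPM of Rspo1 (32.5 to 43.7), 77.5 of Rspo3 (69.8 to 85.7) and 3.32 of Rspo2, with 685 CPM of Cd81 and 611 CPM of Grem1. So Rspo3 was high in both, Rspo1 was higher in the Grem1-poor cluster and Rspo2 in the Grem1-rich cluster, where 16 of its UMIs lay against 1 in the other. A Frzb/Tnc/Ces1d cluster (817 cells, 714 of them lamina propria fibroblast-like) held middle levels of Rspo1 (44.0 CPM) and Rspo3 (31.5 CPM), and a Cd36/Nxf7/Tceal6 cluster (958 cells, 520 from the Spock3/Hapln1/Stmn2 and 386 from the inflamed fibroblast-like cluster) had Rspo1 (33.1 CPM) with little Rspo3 (6.18 CPM).

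**Figure D2:**
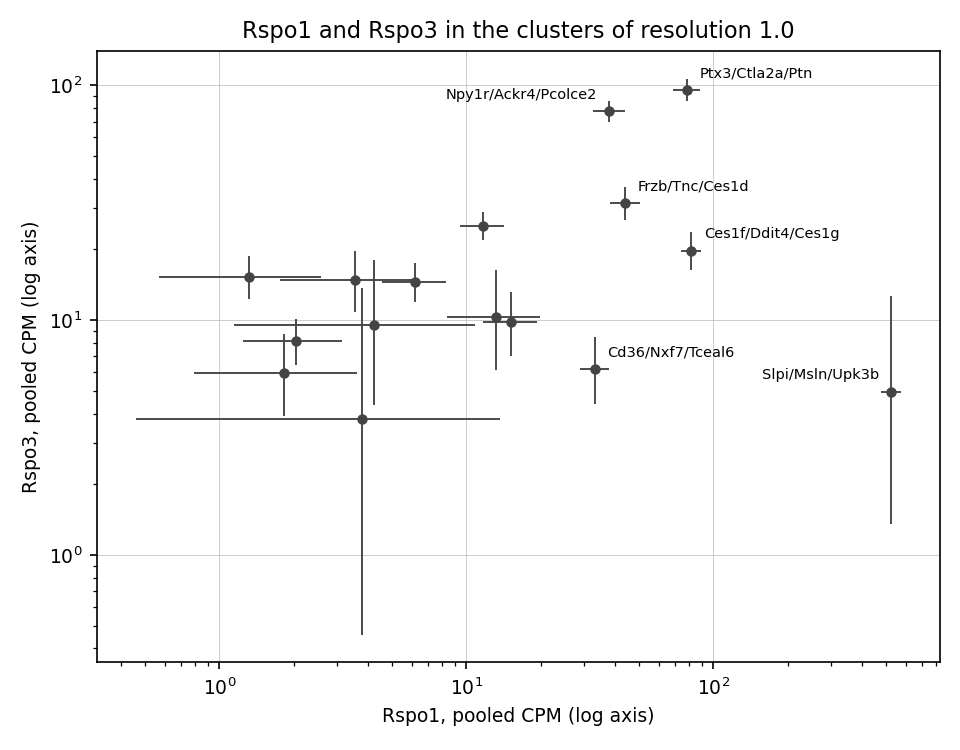
Pooled levels of Rspo1 and Rspo3 (CPM, log axes) in the 16 clusters of the finer clustering, each a point with 95% Poisson intervals; labels give the leading genes of clusters with Rspo1 above 30 CPM. The Ptx3/Ctla2a/Ptn and Npy1r/Ackr4/Pcolce2 clusters are high in both, the Ces1f/Ddit4/Ces1g and Slpi/Msln/Upk3b clusters in Rspo1 with less Rspo3.

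CD34 and CD81 mark stromal subsets, so the cells were also divided by whether they had a UMI of Cd34 or Cd81. Over all cells Rspo3 was higher in cells with Cd81: it had 46.6 CPM in the 2581 cells with both, 42.9 in the 495 with Cd81 only, 13.8 in the 5822 with Cd34 only and 11.1 in the 2478 with neither. Cells with a Cd81 UMI had 3.53 times (3.20 to 3.90) the Rspo3 level of cells without, and 3.66 times without the mesothelium-like cluster. Inside the Ptx3/Pcolce2/Ebf1 cluster Rspo3 did not follow Cd81. It was 84.6 CPM with both, 93.0 with Cd34 only, 90.3 with Cd81 only and 59.1 with neither, with overlapping intervals. Inside the lamina propria fibroblast-like cluster it was 45.3 CPM (36.1 to 56.2) with both and 25.7 (22.6 to 29.0) with Cd34 only. There it was 31.7 with Cd81 only and 17.1 with neither. With the mesothelium-like and Ptx3/Pcolce2/Ebf1 clusters left out, Rspo3 was 21.9 CPM with both and 37.0 with Cd81 only. Beside these stood 13.0 with Cd34 only and 10.75 with neither. Cells with a Cd34 UMI had 1.46 times (1.29 to 1.67) the Rspo3 level of cells without. The ratio was 1.185 after thinning each cell to 3000 UMIs, which left out 736 shallower cells.

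For Rspo1 the lowest class was Cd34 only, with 11.1 CPM (10.0 to 12.2). The other classes had 48.2 CPM (both), 67.2 (Cd81 only) and 39.3 (neither), and without the mesothelium-like cluster 30.7, 40.3 and 39.3 CPM. With the Ptx3/Pcolce2/Ebf1 cluster also left out, cells with both had 12.6 CPM (from 128 UMIs), beside 10.9 (9.89 to 12.0) in cells with Cd34 only. Cells with a Cd81 UMI had 2.71 times (2.48 to 2.96) the Rspo1 level of the rest, falling to 1.71 times without those 89 cells. Cells with a Cd34 UMI had 0.523 times (0.477 to 0.572) the Rspo1 level of cells without, while Rspo3 was higher in cells with Cd34. Inside the lamina propria fibroblast-like cluster the contrast was of the same kind, with 25.0 CPM of Rspo1 in cells with Cd34 only and 70.2 in cells with neither. The Ptx3/Pcolce2/Ebf1 cluster had 55.9 CPM with both and 45.1 with Cd81 only, then 24.6 with Cd34 only and 69.0 with neither. In the Ptx3/Pcolce2/Ebf1 cluster the intervals overlapped within each of these pairs. They did not overlap between its cells with both (50.6 to 61.5) and with Cd34 only (11.3 to 46.75). The lamina propria fibroblast-like intervals were also apart, 22.0 to 28.25 with Cd34 only and 63.55 to 77.4 with neither. Over the 9 clusters the Pearson r of Rspo1 with Cd34 was -0.0614. It rests on pooled cluster levels, the mesothelium-like one among them, and cannot say how general the contrast between cells is. The Cd34 ratio of Rspo1 between cells was 0.353 after thinning and 0.438 without the mesothelium-like cluster. Rspo2 had 3.96 CPM (2.04 to 6.91) in Cd81-only cells, from 12 UMIs, and 0.372 CPM (0.203 to 0.624) in Cd34-only cells.

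**Figure D3:**
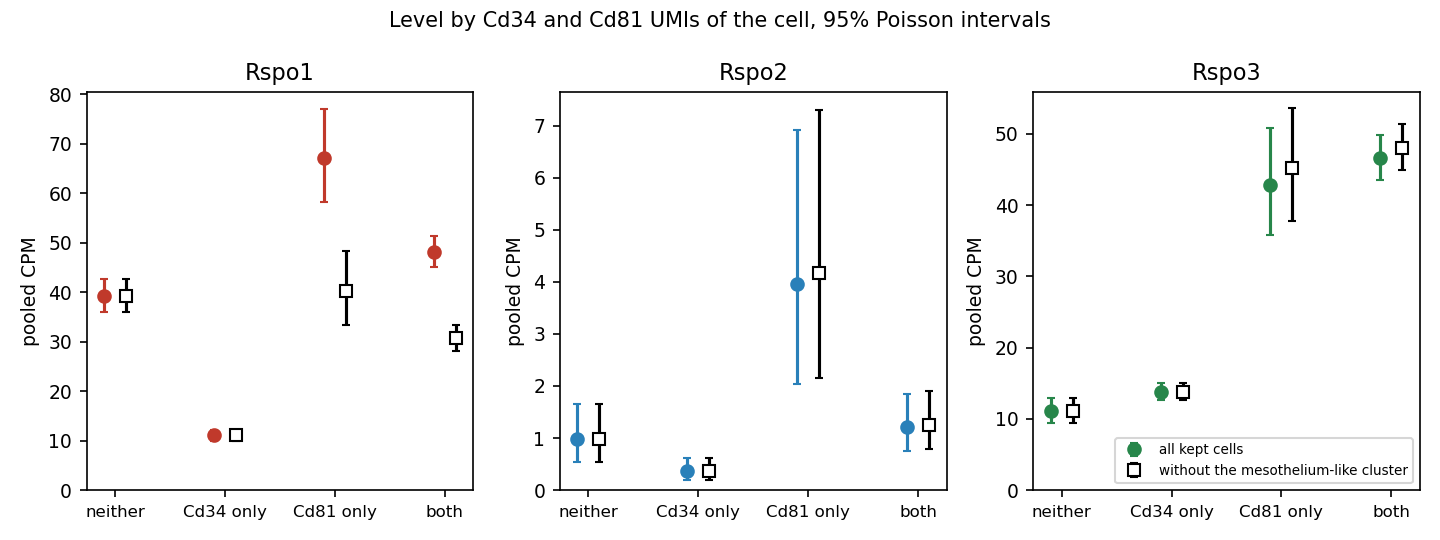
Pooled level of each R-spondin (CPM, axis from 0) in cells with a UMI of neither Cd34 nor Cd81, of one, or of both, with 95% Poisson intervals. Coloured circles are all kept cells and open squares leave out the mesothelium-like cluster, which lowers Rspo1 from 67.2 to 40.3 CPM in Cd81-only cells.

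Over all cells the members were found together more often than their separate shares give. Rspo1 and Rspo3 were both seen in 247 cells against 119.6 from the product of the shares (ratio 2.07, 1.82 to 2.34). With the product taken within each cluster, 176.1 cells were expected and the ratio was 1.40 (1.23 to 1.59). When each cell was thinned to 3000 UMIs, 64 cells had both against 55.2 expected within clusters, a ratio of 1.16 (0.893 to 1.48), so that no excess was detectable at that depth. In the Ptx3/Pcolce2/Ebf1 cluster 146 cells had both against 91.7 expected (1.59, 1.34 to 1.87), and in the lamina propria fibroblast-like cluster 77 against 67.1 (1.15, 0.906 to 1.44). The latter interval includes 1. Depth moved with detection: in the Ptx3/Pcolce2/Ebf1 cluster the median was 7552 UMIs in cells with Rspo1 and 5096 in cells without.

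Rspo1 and Rspo2 were both seen in 25 cells against 6.07 (ratio 4.12, 2.66 to 6.08) and, within clusters, 2.37 times the expectation (1.53 to 3.50). Of these, 17 lay in the lamina propria fibroblast-like cluster, against 6.11 expected (2.78, 1.62 to 4.45). Rspo2 and Rspo3 shared 19 cells against 6.03 (3.15, 1.90 to 4.92), and 1.93 times the expectation within clusters (1.16 to 3.02), or 1.90 (0.615 to 4.42) when thinned, from 5 cells. Doublets were not removed from the library. Without the 569 cells above the 95th percentile of depth the ratios over all cells were 2.10, 4.74 and 3.40 for Rspo1 with Rspo3, Rspo1 with Rspo2 and Rspo2 with Rspo3.

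**Figure D4:**
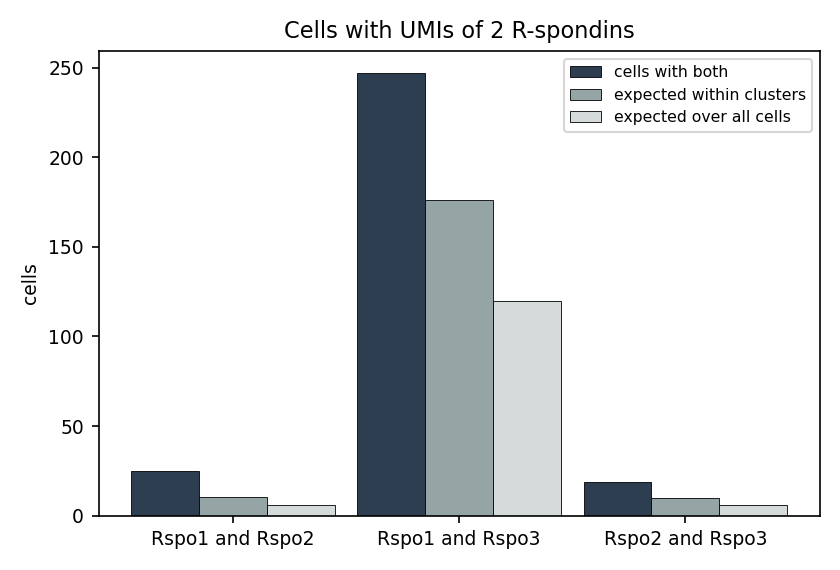
Cells with UMIs of both genes of a pair (dark bars), beside the number expected from the shares within each cluster (grey) and over all cells (light); the axis starts at 0. The observed bar is the tallest in each pair, 247 cells for Rspo1 with Rspo3 against 176.1 and 119.6.

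The receivers of the R-spondin signal were scarce in these stromal cells. Of the 8 receptor and family genes fixed for this, Lrp6 (34.5 to 76.1 CPM) and Lrp5 (2.48 to 27.4 CPM) were the ones to reach 20 CPM in a cluster. Lgr4 lay between 2.43 and 14.9 CPM and Znrf3 between 1.77 and 11.1 CPM. Lrp6 was highest in the Ptx3/Pcolce2/Ebf1 cluster.

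BMP antagonists were high in the Ptx3/Pcolce2/Ebf1 cluster, which had the most Rspo3 at resolution 0.5. In the finer clustering the Ptx3/Ctla2a/Ptn cluster had the most Rspo3 (95.9 CPM), with 102 CPM of Grem1, 0.537-fold of other cells. Fst was 151 CPM in that finer cluster. Grem1 was 611 CPM in the Npy1r/Ackr4/Pcolce2 cluster, which had 77.5 CPM of Rspo3. In the Ptx3/Pcolce2/Ebf1 cluster 4 of the 8 BMP antagonists reached 20 CPM: Grem1 (399 CPM), Fst (67.4), Bmper (25.4) and Chrd (24.2). All 4 were 2-fold or more above other cells, with a median fold of 4.50 against 0.909 over all 5469 genes at 20 CPM there. For each list the minimum of 20 CPM was taken in the cluster named, so a gene could enter by being high there. The share of all genes 2-fold up under that filter was not counted, so these counts are descriptions. In the mesothelium-like cluster Chrdl2 (45.8 CPM) and Fst (28.5 CPM) were 2-fold or more above other cells, and Grem1 stood at 18.6 CPM. Of the Wnt ligands, Wnt5a (379 CPM) and Wnt9a (28.5 CPM) were 2-fold up in the mesothelium-like cluster and the other 2 at 20 CPM, Wnt4 (64.4 CPM) and Wnt5b (23.5 CPM), 2-fold lower. Of the same list, 2 of the 3 at 20 CPM in the Ptx3/Pcolce2/Ebf1 cluster were 2-fold lower than elsewhere, Wnt4 at 34.6 and Wnt5b at 39.6 CPM. Among the secreted Wnt antagonists, Sfrp4 (307 CPM) went with the Ptx3/Pcolce2/Ebf1 cluster and Sfrp2 (442 CPM) and Sfrp5 (37.1 CPM) with the mesothelium-like one. Of this list 2 genes were 2-fold lower in each: Dkk3 (118 CPM) and Sfrp2 (85.7 CPM) in the former, Dkk3 (87.9 CPM) and Sfrp1 (209 CPM) in the latter. The share of all genes that were 2-fold lower was not counted, so these lower counts have no background and are descriptions.

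In the route from the kinase Map3k2 through Map2k5 and Mapk7 (ERK5) to the transcription factor Klf2, Map3k2 itself was even, 27.4 to 44.9 CPM over the clusters. Klf2 was 2331 CPM in the Ptx3/Pcolce2/Ebf1 cluster and 1171 in the mesothelium-like one, and 543 to 955 CPM in the others. Klf4 was also 2-fold up in the former (945 CPM). Klf2 was thus highest in the cluster with the most Rspo3 and second in the cluster with the most Rspo1. Other values ran the other way: the Rspo1-rich Ces1f/Ddit4/Ces1g cluster had 592.5 CPM of Klf2 (0.644-fold of other cells), and inside the lamina propria fibroblast-like cluster Klf2 was 578 CPM in cells with Rspo1 and 784 in cells without. Of the EGF family ligands, both that reached 20 CPM in the Ptx3/Pcolce2/Ebf1 cluster were 2-fold lower than elsewhere, Ereg at 97.1 and Nrg1 at 22.0 CPM. How many of all genes were 2-fold lower there was not counted.

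Inside a cluster, cells with and without a member's UMI were compared for the list genes, with all genes at 20 CPM as background. In the lamina propria fibroblast-like cluster, cells with a Rspo1 UMI differed 1.5-fold either way in 5.08% of 6258 genes, and in 11 of 37 list genes, 8 higher and 3 lower. Nrg1, a ligand of the ErbB receptors, was 587 CPM with Rspo1 and 164 without (3.58-fold), Sdc1 226 and 93.0 (2.43-fold), Grem1 288 and 142 (2.03-fold) and Ereg 712 and 377 (1.89-fold). Cd34 was 115 CPM with Rspo1 and 255 without (0.452-fold). The same genes set apart the Ces1f/Ddit4/Ces1g cells, 780 of which lie in this cluster: they had 695 CPM of Nrg1 against 103 in all other cells, 252 CPM of Sdc1, 95.8 of Cd34 and 81.5 of Rspo1, so the contrast is not separate from that finer cluster. The median ratio was 0.967 over the list genes and 1.00 over all genes.

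Cells with a Rspo3 UMI in the same cluster differed 1.5-fold either way in 2.09% of 6221 genes and in 6 of 39 list genes. Grem1 was 398 CPM with Rspo3 and 132 without (3.01-fold), and Cd81 64.5 and 27.0 (2.39-fold), while Wnt4 was 150 and 241 (0.622-fold). In the Ptx3/Pcolce2/Ebf1 cluster Cd81 was 742 CPM with Rspo3 and 804 without (0.923-fold). In the Ptx3/Pcolce2/Ebf1 cluster, Rspo1 cells differed in 3.54% of 5799 genes and in 8 of 39 list genes, with Bmper at 48.3 against 15.8 CPM (3.06-fold), Wnt4 at 49.5 against 28.2 (1.75-fold) and Gdf10, a BMP-like ligand, at 121 against 71.2 (1.70-fold). Rspo3 cells there differed in 3.00% of 5764 genes and in 6 of 39 list genes, with Grem1 at 581 against 295 CPM (1.97-fold), Bmper at 40.9 against 16.5 (2.48-fold) and Sfrp4 at 202 against 367 (0.551-fold). Grem1 was thus higher in cells with Rspo3 inside both clusters. Gdf10 is a leading gene of the finer Ptx3/Ctla2a/Ptn cluster, at 183 CPM against 2.32 in all other cells. That cluster had 78.0 CPM of Rspo1, against 37.8 in the Npy1r/Ackr4/Pcolce2 cluster. The Gdf10 contrast of Rspo1 cells is therefore not separate from the finer clusters. Cells with a member's UMI were deeper in all 4 of these comparisons, and the part of depth was not tested.

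By likeness of log2(CPM + 1) over the 9 clusters, the genes closest to Rspo3 included Fap (r 0.969), Wisp2 (0.941), Gm2564 (0.919), Prrx1 (0.893), Pde3a (0.889) and Raph1 (0.883). Of those named, all but Raph1 were highest in the Ptx3/Pcolce2/Ebf1 cluster. The genes closest to Rspo1, Phf11d (0.973), Birc2 (0.937), Ifi44 (0.937), Angptl4 (0.931), Rsad2 (0.921), Irf7 (0.920), Akr1e1 (0.916) and Dnajb9 (0.913), were all highest in the mesothelium-like cluster of 89 cells. Ifi44, Rsad2 and Irf7 are interferon-induced genes. Those closest to Rspo2, led by Thbs2 (0.942) and Fndc1 (0.906), rest on 62 UMIs.

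In the ATAC-seq lists, each population had 1 list of peaks, from 143411 in CD34 SP to 216805 in CD138, with no replicate spread and no read depth. Scores are the authors' and are given as percentiles within their own list, where 100 is the highest. The windows were the gene bodies with 10 kb on both sides: Rspo1 (ENSMUSG00000028871) at chr4:124986430-125009099, plus strand; Rspo2 (ENSMUSG00000051920) at chr15:43020794-43170826, minus strand; and Rspo3 (ENSMUSG00000019880) at chr10:29452416-29535867, minus strand. In the order MRISC, CD34 SP, CD138 and Myofibroblast, Rspo1 had 7, 5, 4 and 3 peaks. Rspo2 had 8, 7, 13 and 7, and Rspo3 had 14, 14, 16 and 6. The median protein-coding gene had 5 in each list apart from 4 in CD34 SP. Per 10 kb, Rspo3 had 1.35 in MRISC and CD34 SP, 1.55 in CD138 and 0.580 in Myofibroblast, beside medians over all genes of 1.02, 0.825, 1.14 and 0.984, so Myofibroblast was the list in which Rspo3 fell under the median. Rspo2, the longest of the 3 genes, had 0.471, 0.412, 0.765 and 0.412 per 10 kb in the same order, under the median in all 4 lists.

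The start of Rspo1 was covered by a peak in MRISC (chr4:124986198-124987298, percentile 91.0) and in CD34 SP (chr4:124986146-124987072, percentile 71.7). CD138 had no peak within 1 kb of the start. Myofibroblast had none over the start but 1 upstream, at chr4:124985608-124985764 (percentile 62.0), overlapped by a wider MRISC peak. Of 21938 protein-coding genes, 59.9% had a peak over a start in the MRISC list, 59.4% in the CD34 SP list, 58.0% in the CD138 list and 53.8% in the Myofibroblast list. The pattern of Rspo1, a covered start in MRISC and CD34 SP alone, was shared by 2.21% of genes. The strongest downstream region of the Rspo1 window overlapped the promoter of the next gene, Gnl2, and was held by all 4 populations.

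At Rspo2 the start was covered in MRISC (percentile 60.7), CD34 SP (66.4) and CD138 (45.1) and not in Myofibroblast, a pattern of 3.61% of genes. None of the 7 Myofibroblast peaks in the Rspo2 window was above the median score of its list or overlapped a peak of another population. Of 27 regions, 6 were held by more than 1 population, and 5 of those by CD34 SP and CD138 together. These included intronic regions 18.2 kb (chr15:43152273-43152952), 107 kb and 127 kb past the start, with the second of these at percentile 86.4 in CD138, and none of these 3 was a peak in MRISC. MRISC had 5 regions of its own there, against 2 shared with CD34 SP. Sharing between lists was not counted at other genes, so these counts have no background and describe this window alone.

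At Rspo3 the start was covered in all 4 lists (chr10:29535444-29536157 in MRISC, percentile 96.0; Myofibroblast 94.0, CD34 SP 90.9 and CD138 80.9), a pattern that 50.6% of genes had. Of 26 regions, 10 were held by more than 1 population. MRISC and CD34 SP shared 9 regions, MRISC and CD138 7, and MRISC and Myofibroblast 3. In all, MRISC held 13 regions, CD34 SP 12, CD138 14 and Myofibroblast 6. Here too sharing was not counted at other genes. In an intron, a region 2.39 kb past the start held peaks of all 4 lists, at best percentiles of 89.1 in MRISC, 88.0 in CD138, 80.2 in CD34 SP and 33.1 in Myofibroblast; the stretch of 134 bases printed above lies in it. A region 55.5 kb past the start, source of the stretch of 230 bases, ranked at 91.1 in MRISC, 72.0 in CD34 SP and 63.7 in CD138, and had no peak in Myofibroblast.

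**Figure D5:**
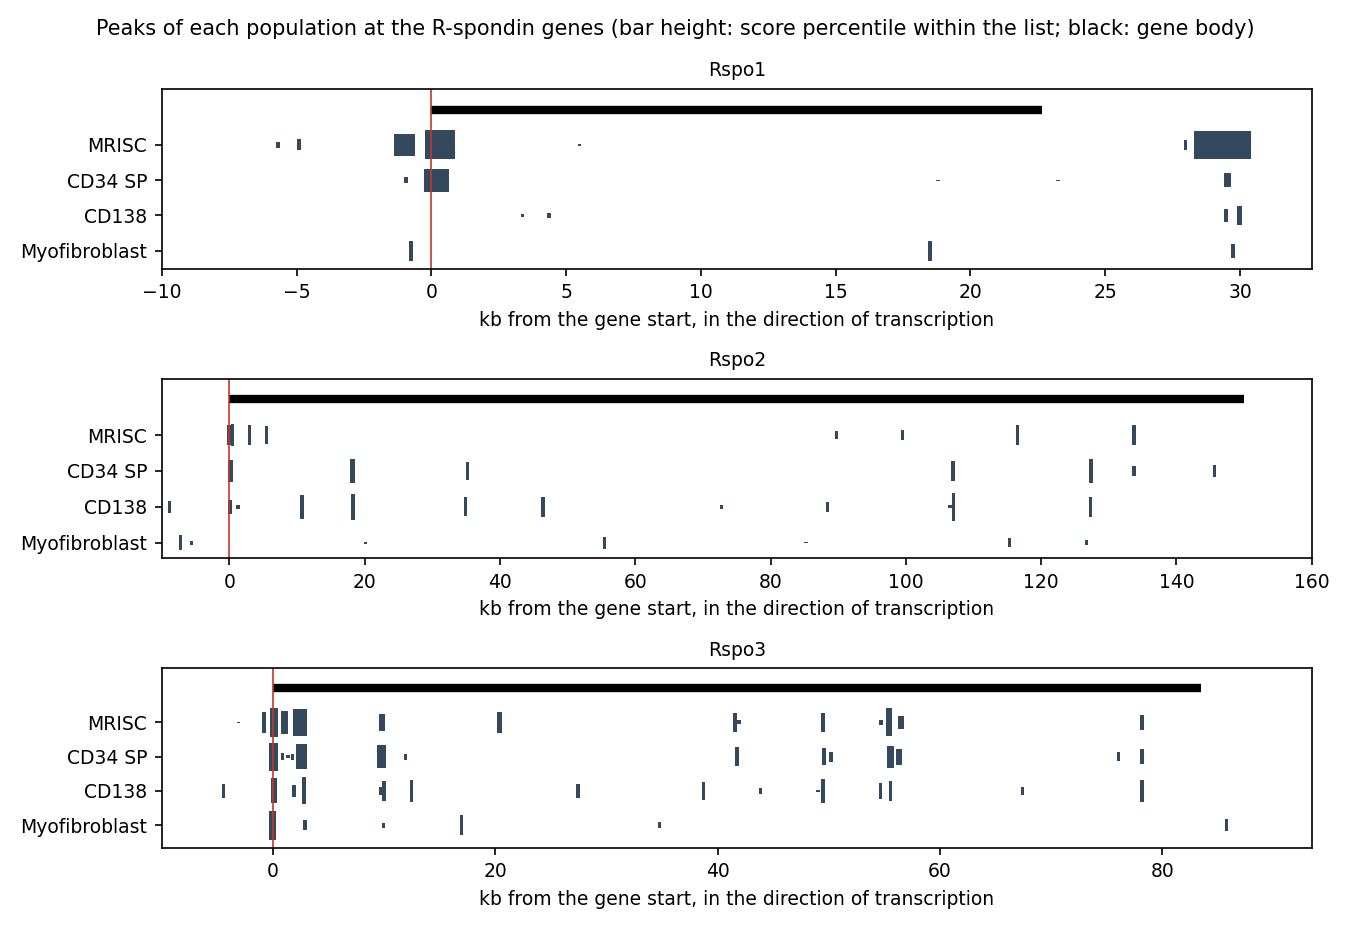
Peaks of the 4 populations by distance from the start of Rspo1, Rspo2 and Rspo3 (kb, in the direction of transcription); bar height is the score percentile within the population's own list, the black line is the gene body and the red line the start. Narrow peaks are drawn wider than they are, to be visible; Rspo1 has a start peak in MRISC and CD34 SP, and Rspo3 in all 4.

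Among the Wnt ligands, 12 of 19 had a covered start in the MRISC list, as many in the CD34 SP list, 7 in the CD138 list and 4 in the Myofibroblast list. Over all protein-coding genes the shares in that order were 59.9%, 59.4%, 58.0% and 53.8%, which also stand beside the next list. The MRISC and CD34 SP counts of Wnt ligands were near those shares. Of the BMP antagonists 8 of 8 had one in MRISC and 6 in each of the other lists, and Grem1 was covered in every list except Myofibroblast, as was Rspo2. Rspo4 had no covered start in any list. In RNA, Rspo1 stood at 81.5 CPM in the Sdc1-rich, Cd34-poor Ces1f/Ddit4/Ces1g cluster, while the CD138 list had no peak at its start. The 2 data sets differ in sex, DSS is named for the single-cell library alone, and the sorted populations cannot be matched to clusters from these files.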

How the data were processed

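The member genes and the gene lists were chosen with earlier results of these data known. UMI counts per gene and barcode are whole numbers in the files the authors deposited, made with Cell Ranger and Seurat on mm10, per the submitters' processing notes. Each peak carries a score from the authors, whose meaning is unknown, and bedtools was used, per the submitters' processing notes. For the peak caller and the joining of the 2 libraries of a population: not given in the sources used here. List starts were read as counted from 0 and are printed counted from 1.

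Of 11484 barcodes, 11376 passed a minimum of 500 genes and a maximum of 10% of UMIs from mitochondrial genes. They were clustered in scanpy 1.11.5 (2000 variable genes, 30 principal components, 15 neighbours, leidenalg 0.10.2 at resolution 0.5; 1.0 for the finer set) without the R-spondin genes. Clusters took "-like" names from fixed markers. Doublets were not removed. A count of 0 was read as at most 3 counts. Empty droplets had 1 to 100 UMIs. Named genes were the members, Rspo4, list genes at 20 CPM or more, sort markers, the 3 leading genes of a cluster by fold (at 50 CPM or more) and the 8 genes most like a member; a few of these are not reported here.

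Peaks on 21 chromosomes were given to genes of GENCODE vM21, and peaks overlapping by 1 bp were joined into regions. The interval search was tested on simulated data against bedtools 2.31.1. Protein sequences were not used here. No p-value was made, since each data set has 1 list or library per group.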

Additional observations from a re-analysis of the deposited data

How the results depend on the processing

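Of 117 values under alternative settings, 66 stayed within counting error or, for peak and region counts, within 1.5 times, and 51 moved. Levels, shares and counts have no direction to reverse, and none of the ratios reversed. Settings added after seeing the data leave out the mesothelium-like cluster or keep peaks above the median score for shared regions. The level of Rspo1 was 25.0 CPM without the deepest 5% of cells, 24.35 as a mean of cells, 24.1 with free RNA subtracted and 22.5 without the mesothelium-like cluster, and that of Rspo3 was 19.6 with free RNA subtracted. Shares of cells fell to 5.93%, 0.235% and 5.68% for Rspo1, Rspo2 and Rspo3 when thinned to 3000 UMIs and to 3.62%, 0.0264% and 2.68% at 2 or more UMIs. The share of UMIs in the leading cluster was 22.75%, 33.9% and 22.6% at resolution 1.0, and 24.7% (Rspo1) and 35.5% (Rspo2) with the R-spondin genes clustered. The Cd34 ratio was 0.353 (Rspo1) and 1.185 (Rspo3) when thinned and 0.438 (Rspo1) without the mesothelium-like cluster, where the Cd81 ratio of Rspo1 was 1.71. The co-detection ratio within clusters was 2.37 (Rspo1 with Rspo2) and 1.40 (Rspo1 with Rspo3). When thinned, Rspo1 with Rspo3 had a ratio of 1.79 over all cells and 1.16 within clusters. At 2 or more UMIs of each, the ratio over all cells was 9.20 (Rspo1 with Rspo2), 2.72 (Rspo1 with Rspo3) and 12.4 (Rspo2 with Rspo3). The first and last of these came from 1 cell each.

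Peak counts moved with the window. In the order MRISC, CD34 SP, CD138 and Myofibroblast, Rspo1 had 2, 2, 2 and 1 in the gene body and 21, 17, 15 and 15 with 50 kb on both sides; above the median score MRISC had 3 and CD34 SP and CD138 had 1 each, and CD138 had 2 with lists of equal number. With 50 kb, Rspo2 had 13 in MRISC and 12 in CD34 SP and Myofibroblast, and Rspo3 had 24 in MRISC and 25 in CD138. Above the median score, Rspo2 had 6 in CD138 and 0 in Myofibroblast, and Rspo3 had 9 in CD138, 7 in CD34 SP and 2 in Myofibroblast. With lists of equal number Rspo2 had 8 in CD138 and 3 in Myofibroblast, and 3 of its regions were shared at 50% of both peaks. The cause was not tested. No paired analysis was possible because each population has 1 peak list and the single-cell data are 1 library.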
